A study of Mus musculus with 7 samples.

Results

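Respiratory complex I is described here through 36 of the 26586 gene symbols in the count table, across 7 single mouse embryos. The members are the symbols made of Nduf, then a, b, c, s or v, then a number. They are nuclear genes of its structural subunits, and assembly factors (Ndufaf) were left out. Messenger RNA was sequenced from embryos of the C57BL/6 background at the morula stage, 3 days post coitum, each from a mating of parents with 1 mutant and 1 normal copy of L13a, the ribosomal protein gene Rpl13a. Genotype, sex, litter and batch are not in the labels, so all 7 embryos form 1 group, none was assigned a genotype, and no groups of embryos were compared. The labels do not say whether the embryos came from separate litters, so differences between them may be technical as well as biological.

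Complex I (NADH:ubiquinone oxidoreductase) takes electrons from NADH, passes them to ubiquinone and pumps protons across the inner mitochondrial membrane. Its L-shaped structure is built from parts: the N module oxidises NADH, the Q module reduces ubiquinone, and a proximal and a distal part of the membrane arm carry the pumping channels. The core subunits, kept from bacteria, hold the flavin, the iron-sulfur clusters and the channels, and supernumerary subunits surround them. The core channel subunits are encoded in mitochondrial DNA and were not analysed here. Cleavage-stage mouse embryos inherit their mitochondria from the egg, and respiration rises towards the blastocyst. Of the 36 members, 7 encode core subunits and 29 supernumerary ones. Ndufa4 is counted among the 29 by its name, although its product is now placed in complex IV.

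The start regions of the members were read to set their letters beside the levels. RefSeq's table, on build GRCm38.p6, held a start region for 32 of the 36 genes, each window running from 250 bases before the transcription start to 50 after it. Windows of 4 genes are printed 5′ to 3′ on the strand of the gene, with every match to the 6 motifs searched in capitals. Ndufs5 (chr4:123718137-123718436, minus strand) was counted in 1 embryo and its window holds none of the motifs. Ndufb11 (chrX:20617570-20617869, minus strand) was counted in 6 embryos and its capitals are CCAAT boxes, each read on the other strand as ATTGG. Ndufa11 (chr17:56717512-56717811, plus strand) shows the NRF1 core on both strands, overlapping, and Ndufs7 (chr10:80249199-80249498, plus strand) shows a TATA box and, after the start, the YY1 core.
Ndufs5: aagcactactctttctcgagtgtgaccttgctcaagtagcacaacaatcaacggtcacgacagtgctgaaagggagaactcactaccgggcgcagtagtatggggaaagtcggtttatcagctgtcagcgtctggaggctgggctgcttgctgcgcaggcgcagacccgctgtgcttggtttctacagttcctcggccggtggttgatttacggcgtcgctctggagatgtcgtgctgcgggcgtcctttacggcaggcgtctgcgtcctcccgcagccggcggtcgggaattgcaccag
Ndufb11: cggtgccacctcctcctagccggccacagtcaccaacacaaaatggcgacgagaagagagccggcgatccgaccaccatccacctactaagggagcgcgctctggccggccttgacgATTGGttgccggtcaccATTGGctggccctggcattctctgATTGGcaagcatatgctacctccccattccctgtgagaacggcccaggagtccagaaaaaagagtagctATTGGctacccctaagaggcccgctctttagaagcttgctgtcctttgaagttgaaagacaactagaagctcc
Ndufa11: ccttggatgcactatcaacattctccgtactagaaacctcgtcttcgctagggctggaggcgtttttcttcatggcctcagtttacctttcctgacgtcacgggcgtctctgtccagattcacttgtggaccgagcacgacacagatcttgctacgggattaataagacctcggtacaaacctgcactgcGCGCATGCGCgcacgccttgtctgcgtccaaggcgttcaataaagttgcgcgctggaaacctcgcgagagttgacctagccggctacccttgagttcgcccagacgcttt
Ndufs7: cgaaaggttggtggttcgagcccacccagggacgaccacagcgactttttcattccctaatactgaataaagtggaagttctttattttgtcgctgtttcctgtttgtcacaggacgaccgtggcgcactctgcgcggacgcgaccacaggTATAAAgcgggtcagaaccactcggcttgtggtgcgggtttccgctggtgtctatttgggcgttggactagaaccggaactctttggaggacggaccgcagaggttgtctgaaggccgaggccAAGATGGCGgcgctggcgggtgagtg

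Motifs were searched as exact letters on both strands. The NRF1 core (GCATGCGC, of a factor known to act on nuclear genes of respiration) was found in 3 of 32 members (9.38%), Ndufa6, Ndufa8 and Ndufa11, and in 3.05% of all 27025 genes with a window. The ETS core (CCGGAAG, read by GABPA among others) was in 4 members (12.5%), and in 9.93% of all genes. The YY1 core (AAGATGGCG) was in 5 members (15.6%), against 1.64% of all genes. Those 5 were Ndufa9, Ndufc1, Ndufs4, Ndufs6 and Ndufs7, and each match began 23 to 36 bases after the start site on the coding strand. Of the 477 YY1 core matches in all windows, 43.8% lay after the start site on that strand. GC boxes (GGGCGG) were in 43.8% of members and 38.2% of all genes, CCAAT boxes in 31.2% and 41.1%, and TATA boxes (TATAAA) in 12.5% and 15.7%. In 5 members no motif was found: Ndufs5 (counted in 1 embryo), Ndufv1 (2), Ndufb5 (3), Ndufa4 (4) and Ndufb10 (5). Ndufs4 and Ndufa12, counted in 2 embryos each, had matches, and a relation between motifs and the number of embryos was not tested. A match is a run of letters and not a shown binding site.

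Libraries differed widely in depth, from 139619 counts in replicate 6 to 33123742 in replicate 4. The others held 1143861 (replicate 1), 16452890 (replicate 2), 725729 (replicate 3), 2764409 (replicate 5) and 17122136 (replicate 7). Values below are CPM, a gene's count over its library total, scaled to 1000000 counts. A count of 0 allows up to 3 counts, which is 0.0906 CPM in replicate 4, 0.175 in replicate 7, 0.182 in replicate 2, 1.09 in replicate 5, 2.62 in replicate 1, 4.13 in replicate 3 and 21.5 CPM in replicate 6. All such limits and intervals cover counting error only. In whole embryos, fewer cells and less RNA per cell cannot be told apart.

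Markers of the labelled stage were uneven. Of 5 morula and blastocyst markers (Pou5f1, Nanog, Cdx2, Krt8, Gata6), 5 were counted in replicate 4, 2 in replicates 2 and 7, 1 in replicate 5 and 0 in replicates 1, 3 and 6. The 1 gene in replicate 5 was Gata6, with 21 counts, and Pou5f1, Nanog, Cdx2 and Krt8 were at 0 there. Oocyte markers (Zp3, Bmp15, Gdf9, Omt2b, Btg4) summed to 11.4 CPM in replicate 4 and 589 CPM in replicate 5, and to between 3710 and 12060 CPM in the other 5 embryos. Replicate 6 held 4348 CPM of 4 stroma markers, 444 CPM of 5 blood markers and 2650 CPM of 6 oviduct and uterine epithelium markers. Dcn gave 592 of the stroma counts there and Hbb-b1 44 of the blood counts, while Col3a1, Acta2, Ptprc, Ovgp1 and Pax8 were at 0. The last list stood at 1519 CPM in replicate 2, 1088 in replicate 1, 164 in replicate 7, 49.7 in replicate 4, 1.81 in replicate 5 and 0 in replicate 3. The 4 sperm markers reached at most 22 CPM and the 5 cumulus and granulosa markers at most 12.0 CPM. Whether RNA of these cell types contributed to the complex I values was not tested.

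Replicate 4 was the only embryo in which every complex I subunit gene was counted, 36 of 36. Replicate 2 had 31 and replicate 7 had 26. Replicates 1 and 5 each had 15, replicate 3 had 5 and replicate 6 had 3. No member was counted in all 7 embryos, and only 3.69% of the tested genes described next were. Among the 11810 genes tested, which are those with a mean of 1 CPM or more, 84% were counted in replicate 4, 72.1% in replicate 2, 69.5% in replicate 7, 41.7% in replicate 1, 27.7% in replicate 5, 29% in replicate 3 and 14.8% in replicate 6. The members' shares were 100, 86.1, 72.2, 41.7, 41.7, 13.9 and 8.33% in the same order of embryos. All 36 members are among those tested genes, and replicate 4 alone would have put each of them there, so the shares are a description. With each library thinned to 139619 counts, 36 members were still counted in replicate 4, 26 in replicate 2 and 14 in replicate 7. There were 12 in replicate 1, 10 in replicate 5 and 3 in each of replicates 3 and 6. Of all 26586 symbols, 8508, 6873, 6603, 3956, 2332, 2854 and 1749 were counted after thinning in replicates 4, 2, 7, 1, 5, 3 and 6. Before thinning these numbers were 12064, 9383, 8953, 5121, 3388, 3486 and 1749.

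**Figure D1:**
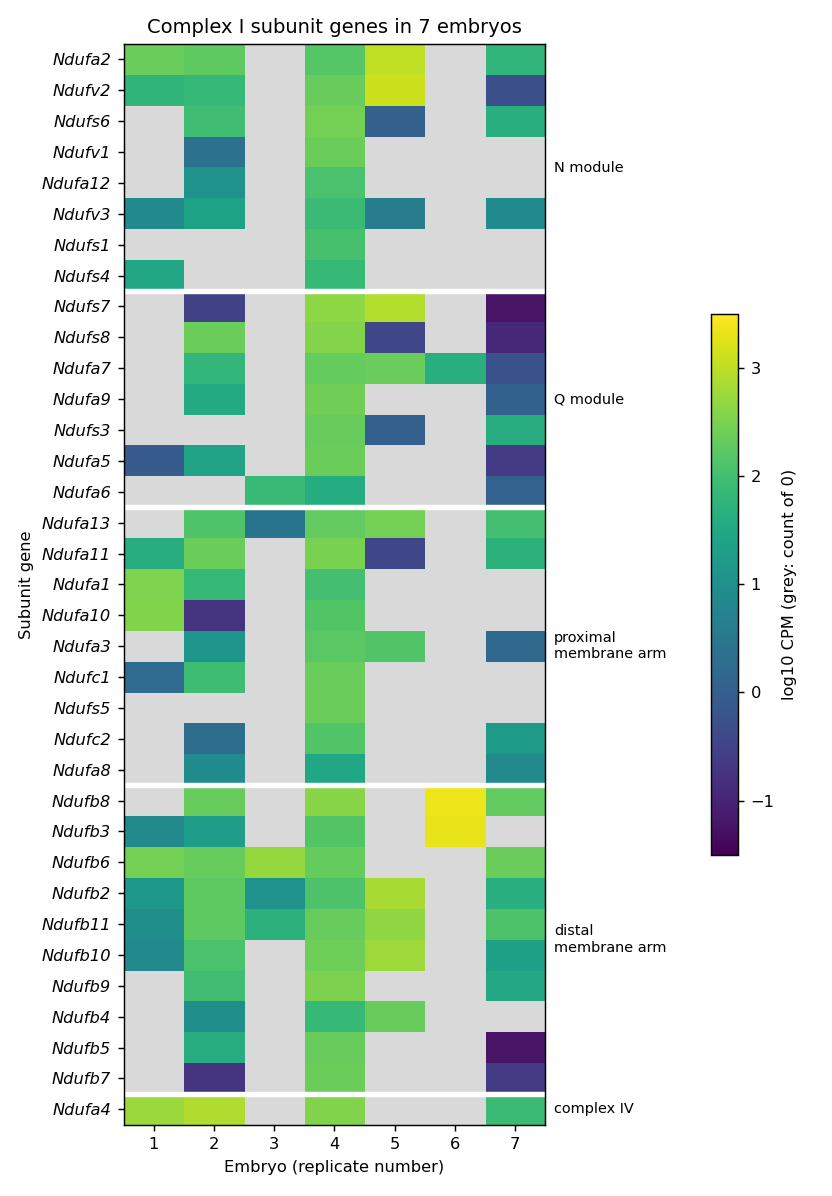
Level of 35 of the 36 subunit genes (rows, grouped by the part of the complex) in each embryo (columns), as log10 CPM on the colour scale, with grey for a count of 0. Replicate 4 has no grey cell, replicates 3 and 6 have 5 and 3 coloured cells, and the brightest cells of replicate 6 are Ndufb8 and Ndufb3.

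Complex I messenger RNA took up between 0.0648% and 0.730% of a library. The share was 0.730% (95% Clopper-Pearson interval 0.727 to 0.733) in replicate 4, 0.583% (0.574 to 0.592) in replicate 5 and 0.463% (0.428 to 0.5) in replicate 6. It was 0.324% (0.321 to 0.327) in replicate 2, 0.195% (0.187 to 0.203) in replicate 1, 0.108% (0.107 to 0.110) in replicate 7 and 0.0648% (0.0590 to 0.0709) in replicate 3. No interval overlapped another. Without Ndufb8 the share in replicate 6 was 0.225%. The share did not follow the number of genes counted. In replicate 4 the 3 members with most counts made up 16.9% of complex I counts, and in replicate 5 they made up 55.1%. That figure was 38.9% in replicate 2, 51.4% in replicate 7, 64.2% in replicate 1, 97.9% in replicate 3 and 100% in replicate 6. The member with most counts also differed: Ndufs7 in replicate 4 (6.17% of complex I counts), Ndufv2 in replicate 5 (22.4%), Ndufa4 in replicates 2 (24.2%) and 1 (28.3%), Ndufb6 in replicates 7 (20.8%) and 3 (78.7%), and Ndufb8 in replicate 6 (51.5%).

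**Figure D2:**
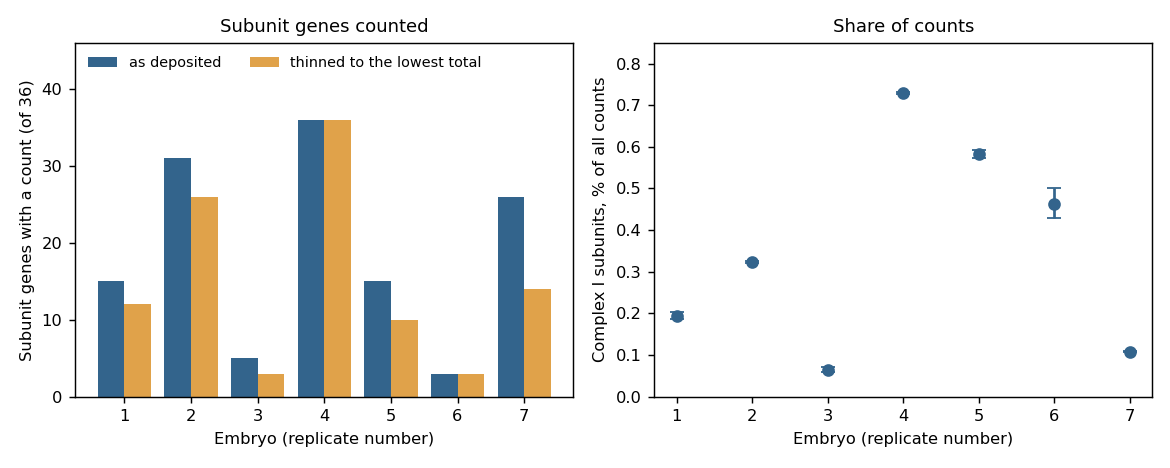
Left, the number of the 36 subunit genes with a count in each embryo (bars from 0), as deposited and after thinning every library to the lowest total. Right, the summed subunit counts as a percentage of the library total, with 95% Clopper-Pearson intervals. Replicate 5 had 15 genes counted and a share of 0.583%, while replicate 7 had 26 genes and 0.108%.

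The N module, which takes electrons from NADH, was counted in full in replicate 4 alone (8 of 8 genes) and not at all in replicates 3 and 6. Of its genes 6 were counted in replicate 2 and 4 in each of replicates 1, 5 and 7. Its summed level was 2363 CPM in replicate 5, 1266 in replicate 4, 384 in replicate 2, 323 in replicate 1 and 114 CPM in replicate 7. It made up 40.6% of complex I counts in replicate 5 and 17.3% in replicate 4.

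Ndufv1, whose product binds the flavin and NADH (chromosome 19, 4007384 to 4012806, GENCODE M21 on GRCm38), had 7781 counts in replicate 4 (235 CPM), 39 in replicate 2 (2.37 CPM) and 0 in the other 5 embryos. Ndufv2, the core iron-sulfur subunit beside it (chromosome 17, 66078638 to 66101559), was spread more widely. It stood at 58.6, 71.2, 0, 216, 1303, 0 and 0.526 CPM in replicates 1 to 7, so the flavin-site pair was highest in different embryos. Replicate 5 had 3602 counts of Ndufv2 and 0 of Ndufv1. Ndufs1, the largest subunit and carrier of several iron-sulfur clusters (chromosome 1, 63143596 to 63176833), had 3692 counts in replicate 4 (111 CPM) and 0 in the other 6. Its level in replicate 4 was at least 636-fold higher than in replicate 7, at least 611-fold higher than in replicate 2 and at least 103-fold higher than in replicate 5. Against replicates 1, 3 and 6 the depth allowed bounds of only 42.5-fold, 27.0-fold and 5.19-fold.

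Among the supernumerary genes of the N module, Ndufs4 and Ndufs6 are known from inherited complex I deficiency. Ndufs4 (chromosome 13, 114287795 to 114388258) had 36 counts in replicate 1 (31.5 CPM), 2379 in replicate 4 (71.8 CPM) and 0 elsewhere, at least 394-fold below replicate 4 in replicate 2. Ndufs6, which carries a zinc ion (chromosome 13, 73319838 to 73328542), stood at 0, 92.9, 0, 286, 1.09, 0 and 43.8 CPM. Its order was replicate 4, then 2, then 7, and the 1.09 CPM of replicate 5 were 3 counts. Ndufa2, a small thioredoxin-like subunit, was the member of this module with the highest mean per kilobase of exon, 418 ± 647 CPM per kilobase (SD, n = 7). It stood at 225, 182, 0, 149, 1055, 0 and 61.7 CPM. Its level in replicate 5 was 7.07 times that in replicate 4 (95% interval from the counts 6.75 to 7.40). Ndufv3 had one of the smallest SDs of log2 CPM, a measure that a low level also makes small, with 7.87, 24.7, 0, 80.2, 3.98, 0 and 8.12 CPM. Ndufa12 was counted in replicates 2 and 4 only, at 11.4 and 117 CPM.

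The Q module hands electrons to ubiquinone, and 8 of its 8 genes were counted in replicates 4 and 7. In replicate 7 most were scarce, with a summed level of 55.3 CPM against 1919 CPM in replicate 4, 1080 in replicate 5 and 443 in replicate 2. Replicate 1 had 1 count of 1 gene, replicate 3 had only Ndufa6 (53 counts) and replicate 6 only Ndufa7 (6 counts).

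Ndufs7, which holds the last iron-sulfur cluster before ubiquinone (chromosome 10, 80249121 to 80256794), had 14903 counts in replicate 4 (450 CPM) and 2359 in replicate 5 (853 CPM). Elsewhere it had 5 counts in replicate 2, 1 in replicate 7 and 0 in replicates 1, 3 and 6. Its mean per kilobase was the highest of this module, 108 ± 197 CPM per kilobase (SD, n = 7). Ndufs8, the adjoining iron-sulfur subunit (chromosome 19, 3908863 to 3912774), was high in replicates 2 and 4, with 239 and 370 CPM. It had 1 count in replicate 5, 2 in replicate 7 and 0 in the remaining 3. These neighbours in the protein were both above 1 CPM in replicate 4 and in no other embryo. Ndufs3, another core subunit of this module (chromosome 2, 90894634 to 90904827) was at 220 CPM in replicate 4, 40.8 in replicate 7 and 1.09 in replicate 5, with 0 counts in replicates 1, 2, 3 and 6.

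The 4 supernumerary genes of the Q module were each at 0 in at least 2 embryos. Ndufa5 was at 233 CPM in replicate 4 and 26.8 in replicate 2, with 4 counts in replicate 7 and 1 in replicate 1. Ndufa9 stood at 263 CPM in replicate 4, 35.7 in replicate 2 and 1.11 in replicate 7. Ndufa6 went another way, with 73.0 CPM in replicate 3, 39.5 in replicate 4, 1.17 in replicate 7 and 0 counts in replicate 2. Ndufa7 was at 209 CPM in replicate 4 and 225 in replicate 5, a ratio of 5 to 4 whose counting interval, 0.992 to 1.17, held 1.

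Considered together, the 7 core genes were all counted in replicate 4. Of these, 5 were counted in each of replicates 2 and 7, 4 in replicate 5, 1 in replicate 1 and 0 in replicates 3 and 6. Their summed level was 2158 CPM in replicate 5, 1738 in replicate 4, 389 in replicate 2, 58.6 in replicate 1 and 52.7 in replicate 7. In replicate 5 Ndufv2 and Ndufs7 accounted for nearly all of it, since Ndufs8 had 1 count and Ndufs3 had 3.

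The proximal membrane arm, which joins the 2 arms of the complex, had 9 of 9 genes counted in replicate 4, 8 in replicate 2, 5 in replicate 7, 4 in replicate 1, 3 in replicate 5, 1 in replicate 3 and 0 in replicate 6. Ndufa1, a single-span subunit encoded on the X chromosome (37187588 to 37191163), was highest in replicate 1 at 344 CPM, with 70.0 in replicate 2, 103 in replicate 4 and 0 counts in the other 4. It had the highest mean per kilobase of this arm, 176 ± 302 CPM per kilobase (SD, n = 7). Ndufa10 also peaked in replicate 1, at 355 CPM, against 142 CPM in replicate 4 and 3 counts in replicate 2. Ndufs5 (chromosome 4, 123712710 to 123718202), whose start region is printed above without a motif match, had 7916 counts in replicate 4 (239 CPM) and 0 in the other 6. That was at least 1364-fold above replicate 7 and at least 1311-fold above replicate 2.

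The other genes of this arm were counted in 5 embryos (Ndufa13 and Ndufa11), 4 (Ndufa3) or 3 (Ndufa8, Ndufc1 and Ndufc2). Ndufa13 (GRIM-19) was at 132 CPM in replicate 2, 195 in replicate 4, 279 in replicate 5 and 101 in replicate 7, with 2 counts in replicate 3. Ndufa11, with the NRF1 core in its start region, was at 42.0, 235, 0, 311, 0.362, 0 and 50.5 CPM. Ndufa8 had the smallest SD of log2 CPM of all members, with 8.27 CPM in replicate 2, 31.2 in replicate 4, 7.30 in replicate 7 and 0 counts elsewhere. A low level and ties at 0 make this SD small, so it does not show a steady level. Ndufa3, Ndufc1 and Ndufc2 reached 164, 223 and 141 CPM at most, each in replicate 4.

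The distal membrane arm held the members counted in most embryos. Of its 10 genes, 10 were counted in replicates 2 and 4, 8 in replicate 7, 5 in replicate 1, 4 in replicate 5, 3 in replicate 3 and 2 in replicate 6. It made up 99.1% of complex I counts in replicate 6, 88.3% in replicate 3, 60.5% in replicate 7 and from 17% to 33.8% in the other 4. Ndufb11 (chromosome X, 20615326 to 20617619) and Ndufb2 (chromosome 6, 39592574 to 39603382) were counted in 6 embryos each, all but replicate 6. Ndufb11 was at 9.62, 185, 51.0, 219, 473, 0 and 129 CPM, and Ndufb2 at 14.9, 178, 11, 124, 703, 0 and 42.5 CPM. Both were highest in replicate 5.

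Ndufb6 (chromosome 4, 40270591 to 40279421) lay in a narrow range in the 5 embryos that had it. It stood at 290, 215, 510, 209 and 225 CPM in replicates 1, 2, 3, 4 and 7. In replicate 5 it had 0 counts of 2764409, although 15 members were counted there. That was at least 470-fold below its level in replicate 3. Ndufb8 and Ndufb3 made up 641 of the 647 complex I counts of replicate 6. Ndufb8 (chromosome 19, 44548572 to 44555440) was at 2385 CPM there (333 counts), 413 in replicate 4, 214 in replicate 2 and 202 in replicate 7, with 0 counts in replicates 1, 3 and 5. Ndufb3 (chromosome 1, 58586384 to 58595964) was at 2206 CPM there (308 counts), 144 in replicate 4, 20.5 in replicate 2 and 7.87 in replicate 1, with 0 counts in replicates 3, 5 and 7. Per kilobase of merged exons it had the highest mean of the distal arm, 445 ± 1081 CPM per kilobase (SD, n = 7), a value that rests on replicate 6. Per kilobase of principal transcript that gene was Ndufb8, at 675 ± 1269 (SD, n = 7), while Ndufb3 stayed at 445. Ndufb7 had 7800 counts in replicate 4 (235 CPM), 3 in replicate 2, 4 in replicate 7 and 0 in the others. The remaining genes, Ndufb4, Ndufb5, Ndufb9 and Ndufb10, reached 215, 217, 326 and 576 CPM at most.

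Ndufa4 (chromosome 6, 11900292 to 11907497), the member whose product sits in cytochrome c oxidase, was at 553 CPM in replicate 1, 786 in replicate 2, 359 in replicate 4 and 81.7 in replicate 7, with 0 counts in replicates 3, 5 and 6. Its limit in replicate 5 was 1.09 CPM, at least 724-fold below replicate 2.

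Replicate 4 allowed a comparison of all members with each other. The subunits are built into the complex in equal copies, but their messenger RNA levels were unequal. Per kilobase of merged exons, levels ran from 13.8 CPM per kilobase for Ndufs1 to 318 for Ndufs6, a 23.1-fold range with a median of 140. Exons of rare isoforms lengthen some genes, so levels were also taken per kilobase of the principal transcript. On that scale they ran from 28.4 for Ndufb2 to 607 for Ndufb8, a 21.3-fold range with a median of 208. The 7 core genes had a median of 100 CPM per kilobase of merged exons (141 per kilobase of principal transcript) and the 29 supernumerary genes 156 (241). By module the medians were 81.8 for N, 120 for Q, 161 for the proximal and 160 for the distal arm per kilobase of merged exons. Per kilobase of principal transcript they were 116, 239, 206 and 279, so the order of the Q module and the 2 membrane arms changed with the length used. These are levels in 1 embryo and carry no replicate error.

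**Figure D3:**
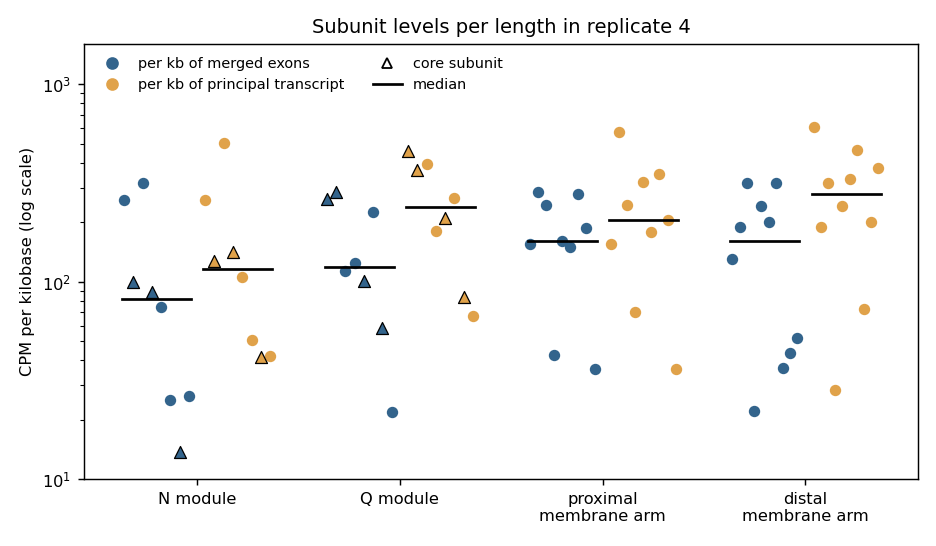
Level of each subunit gene in replicate 4, as CPM per kilobase on a log axis, by part of the complex (Ndufa4 left out). Blue marks use merged exons and orange marks the principal transcript, triangles are core subunits and bars are medians. The blue medians run from 81.8 for the N module to 161 for the proximal arm and the orange ones from 116 for the N module to 279 for the distal arm.

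Replicates 2 and 7 were the pair closest in depth. Their markers differed, with 6016 and 12060 CPM of oocyte markers and 1519 and 164 CPM of oviduct and uterine epithelium markers. Complex I reached 3241 CPM in replicate 2 and 1084 in replicate 7, 2.99 times as much. Of the members, 28 were higher in replicate 2 and 5 in replicate 7, while 44.6% of tested genes were higher in replicate 2 and 41.6% in replicate 7. Both embryos had 24 members in common, 77.4% of those counted in replicate 2 and 92.3% of those in replicate 7. The same overlap was not taken over tested genes, of which 72.1% were counted in replicate 2 and 69.5% in replicate 7. Ndufb8 differed little, with a ratio of 2 to 7 of 1.06 (95% interval 1.01 to 1.11), as did Ndufb6 at 0.952 (0.909 to 0.997). Ndufa13, at 1.32 (1.23 to 1.40), and Ndufb11, at 1.44 (1.36 to 1.52), were moderately higher in replicate 2. Ndufv2 differed 135-fold (71.1 to 297). Ndufs3 and Ndufc2 went the other way, with 699 and 0 counts of Ndufs3 in replicates 7 and 2, and 288 and 30 of Ndufc2. For 4 members the counting interval of this ratio held 1. Since each condition here is 1 embryo, the intervals describe these libraries and not a difference between kinds of embryo.

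Most members peaked in replicate 4 or 5. In replicate 4, 20 of the 36 had their highest CPM, against 29.6% of tested genes. In replicate 5 it was 9 members, against 7.1%. Replicates 1, 3 and 6 were highest for 2 members each and replicate 2 for 1, against 10.9, 8.92, 5.77 and 18.6% of tested genes. Replicate 7 was highest for 0 members and for 19.2% of tested genes. The 9 genes higher in replicate 5 than in replicate 4, by 1.08-fold for Ndufa7 to 7.07-fold for Ndufa2, were Ndufv2, Ndufa2, Ndufs7, Ndufa7, Ndufa13, Ndufb2, Ndufb4, Ndufb10 and Ndufb11. The other 27 were lower there, and 21 of them had 0 counts. Of tested genes, 11.3% were higher in replicate 5 than in replicate 4 and 73.9% were lower. Only 27.7% of tested genes were counted in replicate 5, so zeros there were not particular to the members. Ndufs1 and Ndufs5 were counted in replicate 4 and in no other embryo, as were 7.62% of tested genes. The peaks in replicates 4 and 5 were not particular to complex I. Of 38 nuclear genes of complexes II to V, 21 were highest in replicate 4, 11 in replicate 5 and 0 in replicate 7. Of 73 mitochondrial ribosomal protein genes these numbers were 49, 9 and 2.

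The nuclear subunits of complexes II to V, which carry the electrons onward and make ATP, gave a yardstick within each library. Their 38 genes summed to 18471 CPM in replicate 4, 13517 in replicate 5, 8967 in replicate 6, 7483 in replicate 2, 4856 in replicate 1, 4065 in replicate 3 and 3677 in replicate 7. The order of embryos was the same as for complex I except that replicates 3 and 7 changed places. Counts of complex I were 0.395 times those of complexes II to V in replicate 4 (95% interval 0.393 to 0.397), 0.401 in replicate 1 (0.382 to 0.422), 0.431 in replicate 5 (0.423 to 0.439) and 0.433 in replicate 2 (0.429 to 0.438). The ratio was 0.517 in replicate 6 (0.469 to 0.569), 0.295 in replicate 7 (0.290 to 0.300) and 0.159 in replicate 3 (0.144 to 0.176). It thus varied 3.24-fold between embryos, against 11.3-fold for the share of complex I in the library. In replicate 3, 19 of the 38 genes of complexes II to V were counted and 5 of the 36 of complex I. In replicate 5 the numbers were 31 and 15. Of tested genes, 29% were counted in replicate 3 and 27.7% in replicate 5. The numbers were 19 and 15 in replicate 1, 36 and 31 in replicate 2 and 38 and 36 in replicate 4. They were 4 and 3 in replicate 6 and 32 and 26 in replicate 7. The ratio depended on single genes. Cox8a, a cytochrome c oxidase subunit and the gene of that list with the highest mean CPM, had 2461, 30000, 321, 19943, 5160, 260 and 21983 counts in replicates 1 to 7. Without Cox8a and Ndufb8 the ratio was 0.721 in replicate 1, 0.317 in replicate 6 and 0.368 in replicate 7, so replicate 6 then lay below replicate 7. Ndufa4, whose product is now placed in complex IV, was kept on the side of complex I. It gave 28.3% of complex I counts in replicate 1 and 24.2% in replicate 2. Its part was 7.54% in replicate 7, 4.92% in replicate 4 and 0 in replicates 3, 5 and 6. The ratio was not taken without Ndufa4, so the order of embryos by ratio is given only with it included and may change without it.

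**Figure D4:**
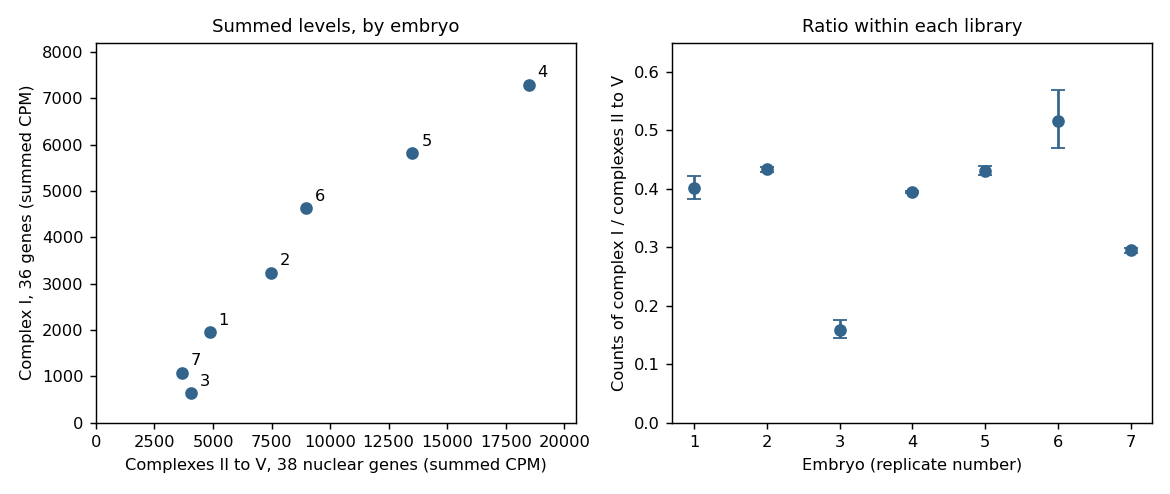
Left, summed CPM of the 36 complex I genes against the 38 nuclear genes of complexes II to V, 1 point per embryo labelled by replicate number. Right, the ratio of the summed counts within each library with 95% intervals from the counts. With Ndufa4 counted in complex I, replicates 3 and 7 have ratios of 0.159 and 0.295, below the other 5, which lie between 0.395 and 0.517. Without Ndufb8 and Cox8a (not drawn) replicate 6, at 0.317, lay below replicate 7, at 0.368.

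Genes that assemble or regulate the complex were read as well. Of 19 listed assembly factors 18 were in the table, and 18 were counted in replicate 4, 11 in replicate 2, 6 in replicate 7, 5 in replicates 1 and 5, 4 in replicate 3 and 2 in replicate 6. Their sum was highest in replicate 3, at 2322 CPM, of which Ndufaf4, an early assembly factor, gave 1775 CPM from 1288 counts. Ndufaf4 was at 39.7 CPM in replicate 4 and 77.6 in replicate 2. Ndufab1, the acyl carrier protein that is also a subunit but whose symbol falls outside the rule, was at 233, 160, 0, 106, 5.06, 0 and 128 CPM. Ndufb1, entered as Gm2695 (a synonym of Ndufb1 in RefSeq), was at 55.1, 46.1, 0, 108, 278, 0 and 48.1 CPM. Among 12 regulators of mitochondrial biogenesis, 11 were counted in replicate 4, 10 in replicate 7, 9 in replicate 2, 7 in replicate 5, 4 in replicate 3, 3 in replicate 1 and 0 in replicate 6. Ppargc1a, a coactivator of mitochondrial genes in adult tissues, had 0 counts in all 7, and Yy1 ranged from 0 counts in replicates 3 and 6 to 1261 CPM in replicate 1. Rpl13a itself had 99, 1954, 4, 17558, 9, 1 and 403 counts in replicates 1 to 7.

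The spread of each member between embryos was large and did not pass a test against genes of like abundance. The SD of log2 CPM over the 7 embryos ran from 3.29 for Ndufa8, 3.33 for Ndufv3 and 3.53 for Ndufs1 to 5.57 for Ndufs7, 5.80 for Ndufa4 and 5.90 for Ndufb8. Every count of 0 stood at -2.07 on this scale, so a low maximum or many ties at 0 makes the SD small. Ndufs1, counted in 1 embryo only, is such a case, and a small SD does not show a steady level. The median was 4.48, beside 3.63 for the tested genes, and after thinning these medians were 1.87 and 1.25. Of the 36 members, 33 had an SD above the tested genes' median, which by construction 50% of them do. The same count was 31 of 36 tested genes of complexes II to V (median SD 4.54), 59 of 72 mitochondrial ribosomal protein genes (4.32) and 8 of 17 tested assembly factors (3.59). These counts were not matched for level, unlike the test that follows. The median member and the median tested gene were at 212 and 19.9 CPM in replicate 4. They were at 38.1 and 14.2 CPM in replicate 2 and at 1.14 and 12.1 CPM in replicate 7. In the edgeR quasi-likelihood dispersion test 0 of 36 members passed (lowest adjusted p 0.869, lowest unadjusted p 0.0719 for Ndufs7), and 0% of the 11810 genes did, with 68 genes and 0 members at an unadjusted p under 0.05. DESeq2 marked 0% of genes as dispersion outliers, and limma on the authors' log2 table called 0%, with 81 genes and 0 members at an unadjusted p under 0.05.

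**Figure D5:**
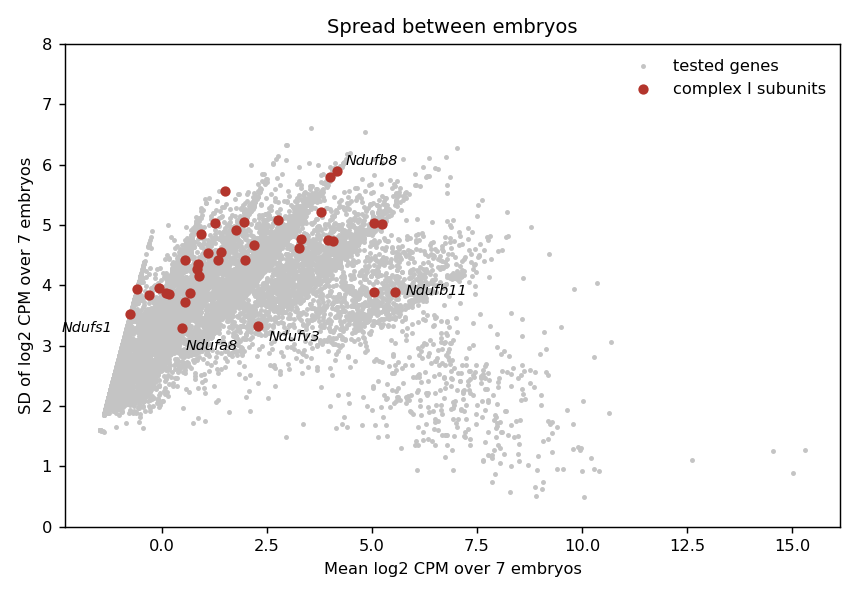
SD against mean of log2 CPM over the 7 embryos, with the 11810 tested genes in grey and the 36 complex I subunits in red. The members lie between an SD of 3.29 (Ndufa8) and 5.90 (Ndufb8), 33 of them above the tested genes' median of 3.63, which is not matched for level.

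Some members share sequence or position with other genes, and the use of strand in counting was not given in the sources used here, so their values are less certain. Processed pseudogenes at least 90% identical over 200 or more bases were found in the annotated transcripts for 12 members, namely Ndufa4, Ndufa7, Ndufa11, Ndufa12, Ndufb2, Ndufb3, Ndufb4, Ndufb7, Ndufb11, Ndufs3, Ndufs5 and Ndufs6. Of these copies 2 have an entry in the count table, Gm6444 for Ndufb11 with at most 3 counts and BC002163 for Ndufs5 with at most 160. The loci of 11 members overlap another gene of the table, such as Rbm10 with Ndufb11 (up to 6961 counts), Eef1b2 with Ndufs1 (20360) and Mrpl47 with Ndufb5 (4828). Whether reads were shared or lost at these places was not tested.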

How the data were processed

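Single-embryo libraries (SMART-Seq v4 cDNA from polyadenylated RNA, Nextera XT, no molecular identifiers) were made from 7 embryos, per the labels' protocols. The authors deposited raw read counts per gene symbol and a log2 table. HISAT2 2.0.5, featureCounts 1.5.0-p2 (Subread), limma and GRCm38 are named in the submitters' processing notes. Their settings and annotation were not given in the sources used here. Deposited log2 values were matched to within 3.33e-13 by log2 CPM (offset 0.5) and quantile normalization, in which a count of 0 stands at -2.65.

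CPM were counts over library totals. Log2 CPM used TMM factors and a prior count of 2 (edgeR 4.0.16, R 4.3.3). The spread test covered 11810 genes whose mean CPM reached 1, all 36 members included: glmQLFit with robust estimation, a one-sided F test of each dispersion against genes of like abundance, and Benjamini-Hochberg adjustment at 0.05. It was also run on simulated counts, but its power there is not given here. limma 3.58.1 and DESeq2 1.42.0 served as alternatives. Lengths and positions came from GENCODE M21, start regions from RefSeq, copies from BLAST 2.17.0. Of the symbols, 22468 matched the annotation. All pairs of libraries differed beyond sampling noise (chi-square over degrees of freedom at least 118).

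The members and gene lists were chosen with earlier results of these data known. Values in every embryo are given for the core subunits (1 is not reported here by name), Ndufs4, Ndufs6, Ndufa4, the 3 members of smallest and of largest SD, the top member per kilobase of each module and members with an embryo far from the others; further members were named after their values were seen.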

Additional observations from a re-analysis of the deposited data

Results flagged for a closer look

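In 4 members 1 embryo stood far from the rest, by a comparison of the gap between the highest embryo and the next with the whole range of log2 CPM, set against Dixon's critical value for 7 samples. The ratio was 1 for Ndufs1 and 1 for Ndufs5, both counted in replicate 4 alone, 0.904 for Ndufb7 and 0.641 for Ndufv1, and replicate 4 was the high embryo in each. Of 39 sets of values examined, the other 35, among them the number of members counted, the share of counts and the ratio to complexes II to V, did not pass. Chance flags about 1 in 20 groups of untied values, a rate that does not hold here: the other 6 embryos were tied at a count of 0 for Ndufs1 and Ndufs5, 5 were for Ndufv1 and 4 for Ndufb7. The ratios therefore add nothing to the counts of 0 already given.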

How the results depend on the processing

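The number of members passing the spread test was 0 in all 15 alternatives, 13 of them edgeR fits (leaving out each embryo among them) and the others limma on the authors' table and DESeq2; at this noise a count of 0 says little. The median SD of the members was 5.45 with a prior count of 0.5 and 1.87 after thinning, and between 3.89 and 4.62 with 1 embryo left out. Without both replicates 3 and 6, chosen after seeing the data, it was 4.61, with 0 members passing (1 at an unadjusted p under 0.05). Of 34 alternatives for the counts of members by embryo, 31 stayed within 1.5 times; replicate 3 had 3 members with 10 or more counts and 3 after thinning, and replicate 7 had 14 after thinning. Without Rn45s, Rnr1, Rnr2 and Lars2 in the total, the share was 0.229, 0.395, 0.773, 0.767, 0.538 and 0.120% in replicates 1, 2, 4, 5, 6 and 7. Without Ndufb8 it was 0.303, 0.688, 0.225 and 0.0881% in replicates 2, 4, 6 and 7. Without Ndufa4 it was 0.140, 0.246, 0.694 and 0.1002% in replicates 1, 2, 4 and 7. The ratio to complexes II to V without Ndufb8 and Cox8a was 0.721, 0.535, 0.179, 0.385, 0.5, 0.317 and 0.368 in replicates 1 to 7. Of the top members of the modules, Ndufa2, Ndufa1 and Ndufb3 had the same length on every measure, so their levels could not change. The level of Ndufs7 went from 108 to 189 CPM per kilobase with other lengths, beside an SD of 197. Ndufb8 replaced Ndufb3 at the top of the distal arm per kilobase of principal transcript. No paired analysis was possible because all embryos form 1 group. Depth limits what a 0 means most in replicate 6, where 3 counts are 21.5 CPM.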
